A study of Homo sapiens with 8 samples.

Results

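The 10 genes described here are 5 subunits of the transcription factor NF-κB (NFKB1, NFKB2, RELA, RELB and REL) and 5 genes of its inhibitors and feedback (NFKBIA, NFKBIE, NFKBIZ, TNFAIP3 and BIRC3). They were chosen by name, 10 of 20037 protein-coding genes of the gene table, and not by a measured value. Earlier results of these data were known when the choice was made. For each gene, every peak overlapping the gene body or the 50 kb either side was taken from each of 8 peak lists. A peak within 1 kb of an annotated start of the gene was counted as its promoter peak. A peak over 1 kb from the start of any protein-coding gene was counted as distal.

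The peaks came from ATAC-seq of H1975 and HCC44, human lung cancer cell lines. In this assay a transposase cuts accessible DNA and leaves adapters for sequencing there. Both lines are labelled wild type (WT) in genotype, with no allele or transgene named. Each line received DMSO, the solvent, or ACBI1 at a labelled dose of 1 mM, both for 96 h, and each of the 4 groups held 2 replicates. The labelled dose is high for a compound of this kind, its unit could not be checked here, and it is given only as labelled. ACBI1 is a small molecule that recruits an E3 ubiquitin ligase to SMARCA2, SMARCA4 and PBRM1, subunits of the SWI/SNF chromatin remodelling complexes, so that they are degraded. The labels do not say that replicates were separate cultures, so the spread between replicates, and any p-value that rests on it, may be technical.

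NF-κB is a family of dimers built from the 5 subunits. In resting cells most dimers are held in the cytoplasm by IκB proteins, and kinase signals from cytokine and pattern receptors lead to destruction of the IκB and entry of the dimer into the nucleus. NF-κB dimers bind κB sites in DNA, and several of the genes they switch on encode their own inhibitors, which ends the response. RELA, RELB and REL carry transactivation domains, whereas NFKB1 and NFKB2 encode precursors that are processed to p50 and p52. NFKBIA encodes IκBα, NFKBIE encodes IκBε and NFKBIZ encodes the nuclear protein IκBζ. TNFAIP3 encodes A20, a ubiquitin-editing enzyme that restrains signalling upstream of NF-κB, and BIRC3 encodes the ubiquitin ligase cIAP2.

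Promoter sequences are shown first because the peaks over them were listed in every sample, whereas the surrounding peaks were not. RefSeq promoters of 300 bases, from 250 before to 50 after a start (GRCh38.p14), were matched for 8 of the 10 genes, 13 promoters in all. They were searched on both strands for the κB-like patterns GGGNNNTTCC and GGGNNTTCC, which can overlap each other. At least 1 match lay in 9 of the 13 promoters, in 7 of the 8 genes, and none in either RELA promoter. Among 22199 promoters of protein-coding genes, 11.9% held either pattern (GGGNNNTTCC 6.97%, GGGNNTTCC 7.28%). A match describes these letters only and is not a measured binding site. The 5 promoters below read 5′ to 3′ on the strand of the gene, with the matched letters in capitals. They show the single match of NFKBIA (chr14:35404700-35404999, minus strand), the pair in TNFAIP3 (chr6:137867009-137867308, plus strand), the match of BIRC3 (chr11:102317234-102317533, plus strand), the palindrome-like match of REL (chr2:60881324-60881623, plus strand) and the cluster in the second NFKB2 promoter (chr10:102394328-102394627, plus strand).
NFKBIA: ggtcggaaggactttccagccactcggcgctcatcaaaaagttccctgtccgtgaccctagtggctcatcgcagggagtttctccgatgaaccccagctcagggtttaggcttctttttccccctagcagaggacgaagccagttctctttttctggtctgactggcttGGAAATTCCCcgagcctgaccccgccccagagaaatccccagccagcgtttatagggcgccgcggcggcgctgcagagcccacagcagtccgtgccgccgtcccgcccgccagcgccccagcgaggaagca
TNFAIP3: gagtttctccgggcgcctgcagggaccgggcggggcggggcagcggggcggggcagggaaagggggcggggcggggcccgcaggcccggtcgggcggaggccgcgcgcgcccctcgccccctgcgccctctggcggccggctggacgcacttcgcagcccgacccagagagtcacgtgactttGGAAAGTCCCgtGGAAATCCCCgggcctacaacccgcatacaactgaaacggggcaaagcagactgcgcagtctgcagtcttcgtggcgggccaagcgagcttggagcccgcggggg
BIRC3: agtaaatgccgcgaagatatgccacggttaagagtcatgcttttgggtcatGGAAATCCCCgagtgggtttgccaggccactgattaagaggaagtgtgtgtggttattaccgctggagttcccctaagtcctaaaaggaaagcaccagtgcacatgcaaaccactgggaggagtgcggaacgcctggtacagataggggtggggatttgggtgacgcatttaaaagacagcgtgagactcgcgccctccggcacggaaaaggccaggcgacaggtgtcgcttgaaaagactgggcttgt
REL: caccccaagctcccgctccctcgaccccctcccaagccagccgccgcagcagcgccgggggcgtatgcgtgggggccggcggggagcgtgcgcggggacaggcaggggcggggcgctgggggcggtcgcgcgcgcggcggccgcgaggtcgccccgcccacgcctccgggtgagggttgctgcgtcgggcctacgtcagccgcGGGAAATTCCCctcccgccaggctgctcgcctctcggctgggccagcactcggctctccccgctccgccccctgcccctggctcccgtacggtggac
NFKB2: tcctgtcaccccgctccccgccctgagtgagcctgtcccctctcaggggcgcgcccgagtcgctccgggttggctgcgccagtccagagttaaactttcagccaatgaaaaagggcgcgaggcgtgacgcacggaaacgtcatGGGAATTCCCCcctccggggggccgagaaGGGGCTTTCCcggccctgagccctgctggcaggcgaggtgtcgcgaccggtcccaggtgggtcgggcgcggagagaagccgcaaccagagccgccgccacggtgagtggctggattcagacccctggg

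In NFKBIA, GGAAATTCCC (the pattern on the opposite strand) began at position -81, counted from the start. In TNFAIP3, GGAAAGTCCC and GGAAATCCCC began at -67 and -55, both on the opposite strand. The BIRC3 match, GGAAATCCCC, lay farther out, at -199. In REL the overlapping GGGAAATTCC and GGAAATTCCC began at -47 and -46. The second NFKB2 promoter held GGGAATTCC at -107, overlapping GGAATTCCCC at -106, and GGGGCTTTCC at -78, and the third NFKB2 promoter held GGGGCTTCC at -176 and GGGACTTTCC at -21. NFKB1 held GGGAATTTCC at -49 of its first promoter, and NFKBIZ held GGGAATTTCC at -223 of the first and GGGGTTTCC at -239 of the second. The whole 300 bases of each of the 5 printed promoters lay inside a listed peak in all 8 samples.

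The lists differed in length between treatments, which touches every comparison that follows. In H1975 the DMSO lists held 43525 and 41027 peaks, against 27682 and 22133 with ACBI1. In HCC44 the lengths were 50347 and 49945 with DMSO, against 26313 and 24862 with ACBI1. The read depth is unknown, and a peak that is not listed is not a measurement of closed chromatin. The part of list length in the results was not tested beyond the comparison at equal numbers of peaks given below. As a check of the labels, promoter peaks at the epithelial genes KRT8, KRT18 and EPCAM were listed in all 8 samples, and none was listed at the leukocyte gene PTPRC or the endothelial gene PECAM1. CDH1, also epithelial, had one in 7 lists, and NKX2-1, a lung lineage gene, in 4 lists of H1975 and 1 of HCC44. A promoter peak at the T-cell gene CD3E was listed in 3 samples. The mesenchymal gene VIM had a promoter peak in all 8 samples, so this check does not separate epithelial from mesenchymal cells. Peaks give no level of a transcript, so none is reported for any gene.

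The 10 genes differed in how the number of listed peaks around them compared between treatments. Around NFKBIA, TNFAIP3, NFKBIZ, NFKB1 and REL fewer peaks were listed in every ACBI1 sample than in any DMSO sample of the same line. Around NFKB2, RELB and NFKBIE the numbers overlapped in both lines, and around RELA and BIRC3 they overlapped in H1975 only. No gene of the 10 had more peaks in both ACBI1 samples of a line. Fewer peaks in both ACBI1 samples were thus counted at 5 of 10 genes in H1975, where 50.6% of the protein-coding genes with a peak in both DMSO samples showed this (43.3% of all protein-coding genes). In HCC44 the count was 7 of 10, against 64.1% of genes with DMSO peaks (55.1% of all). The shares of the 10 genes therefore lay near the background of each line and are not a result about these genes as a set. In both lines together it was 5 of 10, against 41.1%. The opposite order, more peaks with ACBI1, was found at 1.45% of all genes in H1975 and 1.79% in HCC44.

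**Figure D1:**
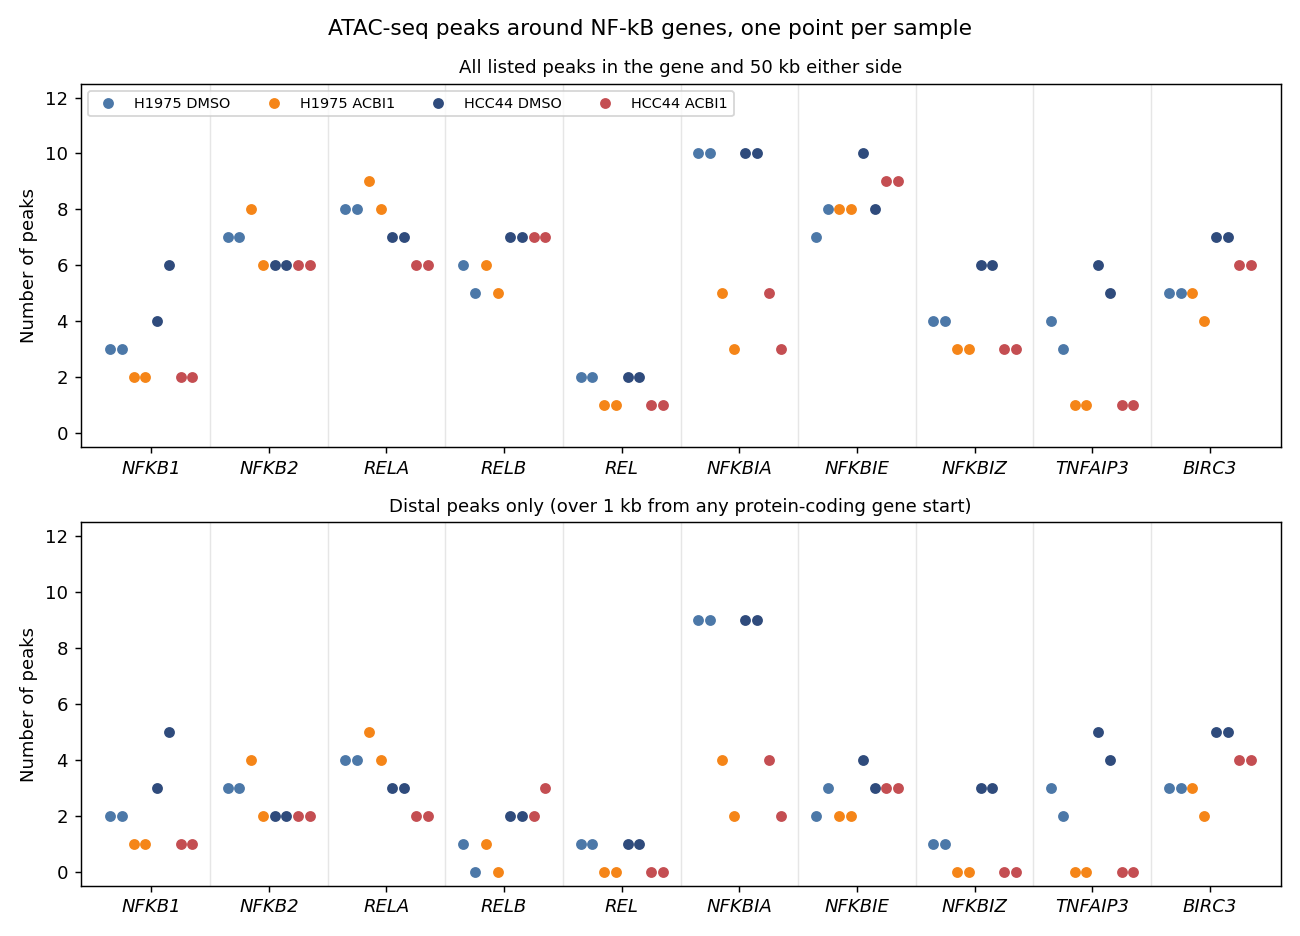
Number of listed peaks in the gene and 50 kb either side (vertical axes) for the 10 genes (horizontal axes), all peaks above and distal peaks below, with 1 point per sample coloured by line and treatment. In the upper panel NFKBIA had 10 peaks in each DMSO sample and 3 or 5 with ACBI1, whereas the points of NFKB2, RELB and NFKBIE overlapped between treatments.

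Of the subunits, NFKB1 had 3 and 3 peaks in the DMSO samples of H1975 (replicates 1 and 2), 2 and 2 with ACBI1, 4 and 6 in the DMSO samples of HCC44, and 2 and 2 with ACBI1. The groups did not overlap in either line. The mean difference, ACBI1 minus DMSO over both lines, was -2.0 peaks (exact permutation test within lines, two-sided, p = 0.0556). With 2 replicates a group, 36 arrangements are possible and 0.0556 is the smallest p the test can give, so no gene can pass 0.05. The same p was reached by 6830 of the 16558 genes with a peak in all 4 DMSO samples, of which 6805 were lower, and adjusted over all of them (Benjamini-Hochberg) it was 0.135. REL, which encodes c-Rel, had 2 and 2 peaks with DMSO against 1 and 1 with ACBI1 in each line, a difference of -1.0 (exact permutation p = 0.0556, adjusted 0.135). The peak that remained at REL was the promoter peak.

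The other 3 subunits did not share that pattern. NFKB2 had 7 and 7 peaks with DMSO against 8 and 6 with ACBI1 in H1975, and 6 in each of the 4 HCC44 samples, a mean difference of 0 (exact permutation p = 1). RELA had 8 and 8, then 9 and 8, in H1975, and 7 and 7, then 6 and 6, in HCC44, a difference of -0.25 (exact permutation p = 1). RELB, the partner of p52 in the non-canonical pathway, had 6 and 5 peaks in the DMSO and again in the ACBI1 samples of H1975, and 7 in each HCC44 sample. A p of 1 with so few samples does not show that nothing changed, and the listed peaks can differ under an equal number.

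Among the inhibitors and feedback genes, NFKBIA had the most peaks to begin with. In each line it had 10 and 10 with DMSO against 5 and 3 with ACBI1, a difference of -6.0 (exact permutation p = 0.0556, adjusted 0.135). TNFAIP3 had 4 and 3 peaks with DMSO in H1975, 6 and 5 in HCC44, and 1 in each of the 4 ACBI1 samples, a difference of -3.5 (exact permutation p = 0.0556). NFKBIZ had 4 and 4 peaks with DMSO in H1975, 6 and 6 in HCC44, and 3 in each ACBI1 sample, a difference of -2.0 (exact permutation p = 0.0556). None of these groups overlapped. The peaks that remained at TNFAIP3 and NFKBIZ were all at gene starts.

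BIRC3 and NFKBIE differed less. BIRC3 had 5 and 5 peaks with DMSO against 5 and 4 with ACBI1 in H1975, which overlap, and 7 and 7 against 6 and 6 in HCC44, which do not. Its difference over both lines was -0.75 (exact permutation p = 0.167, adjusted 0.28). NFKBIE had 7 and 8, then 8 and 8, in H1975, and 10 and 8, then 9 and 9, in HCC44, a difference of 0.25 (exact permutation p = 1) that turned to -0.25 without HCC44 DMSO replicate 2. By role, fewer peaks in both ACBI1 samples were counted at 2 of 5 subunits in H1975 and 3 of 5 in HCC44, and at 3 of 5 and 4 of 5 inhibitors and feedback genes. Over all genes with a peak in both DMSO samples the shares were 50.6% in H1975 and 64.1% in HCC44. With 5 genes a role the counts lie near those shares, and the difference between the roles was not tested.

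Equal list lengths changed these counts. When each list was shortened to its 22133 peaks of highest −log10 q, the length of the shortest list, fewer peaks in both ACBI1 samples were found at 2 of 10 genes in each line. They were NFKBIA and NFKBIZ in H1975 and NFKBIZ and TNFAIP3 in HCC44. The background was then 14.3% of the 15712 protein-coding genes with a peak in both DMSO samples in H1975 and 16.9% of 15221 in HCC44. More peaks in both ACBI1 samples were listed at 3 of 10 genes in H1975 (RELA, NFKBIE and BIRC3), where 27.3% of genes did so, and at 4 of 10 in HCC44 (NFKB2, RELB, NFKBIE and BIRC3), against 33.2%. At this length NFKBIZ had 4 peaks in every DMSO sample against 3 in every ACBI1 sample, and NFKBIA had 5 and 4 against 3 and 3 in H1975 and 5 and 5 against 5 and 3 in HCC44. NFKBIE had 6 and 6 against 7 and 8 in H1975 and 4 and 5 against 7 and 8 in HCC44, the largest difference of the 10 genes at this length, 2.25 (exact permutation p = 0.0556). BIRC3 turned from fewer to more, a difference of 1.5 (exact permutation p = 0.0556), and RELA from -0.25 to 0.75. NFKB2 and RELB each differed by 1.25. REL had 1 peak in every sample, and the differences at NFKB1 and NFKBIA were -0.25 and -1.25 (exact permutation p = 1 and 0.167). Of the 5 genes with fewer peaks in both lines in the full lists, NFKBIZ alone kept the smallest p at this length. In the full lists with windows of 25 kb, however, its difference was -1.0 (exact permutation p = 0.333).

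The neighbourhoods of the genes differ in how many other genes they hold. The windows of NFKBIA and TNFAIP3 contained no other protein-coding gene, those of NFKB1, REL, NFKBIZ and BIRC3 contained 1, those of RELA and RELB 4, that of NFKB2 5 and that of NFKBIE 7. The 5 genes with fewer peaks in both lines were thus all among the 6 with at most 1 neighbour. Over all genes with DMSO peaks, those with at most 1 neighbour had fewer peaks in 60.4% (H1975) and 71.2% (HCC44) of cases, and those with at least 4 in 40.3% and 56%. The part of gene density in the contrast between the 10 genes was not tested.

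Promoter peaks were listed throughout. All 10 genes had a promoter peak in both DMSO samples of each line, and 10 of 10 kept it in both ACBI1 samples, where 95.9% of genes did so in H1975 and 92.9% in HCC44. At this background the count is not particular to these genes. For RELB and NFKBIE the promoter was taken as either end of the gene. Summed over the 10 genes, 13 promoter regions were listed in every sample, of which the RELB region at 45038756 to 45039562 of chromosome 19 lies at the start of CLASRP and the NFKBIE region at 44254729 to 44257856 of chromosome 6 at the start of SLC35B2. Distal regions of the 10 windows summed to 29 and 28 peaks with DMSO against 20 and 13 with ACBI1 in H1975, and to 37 and 37 against 18 and 17 in HCC44. Peaks at the starts of neighbouring genes numbered 14 or 15 in all samples. Counted by gene, the orders with distal peaks alone were those found with all peaks: fewer in both ACBI1 samples at 5 of 10 genes in H1975 (background 58.4% of genes with distal DMSO peaks), 7 of 10 in HCC44 (68.6%) and 5 of 10 in both lines (48.6%).

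The widths of the promoter peaks were compared after their values had been seen. The TNFAIP3 promoter peak spanned 1677 and 1583 bp with DMSO against 1225 and 998 bp with ACBI1 in H1975, and 1543 and 1661 against 1177 and 1241 bp in HCC44. The groups did not overlap, and the mean log2 width differed by -0.48 (exact permutation p = 0.0556, adjusted over 10739 genes 0.124). The REL promoter peak spanned 1424 and 1068 bp, then 1060 and 922 bp, in H1975, and 1674 and 1684 bp, then 1196 and 1263 bp, in HCC44 (log2 difference -0.38, exact permutation p = 0.0556). For NFKBIA, NFKB2 and RELA the log2 difference was -0.25, -0.23 and -0.09, with the same exact permutation p. BIRC3 differed by line: its peak measured 711 and 596 bp with DMSO against 740 and 653 bp with ACBI1 in H1975, but 1553 and 1575 bp against 647 and 669 bp in HCC44.

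**Figure D2:**
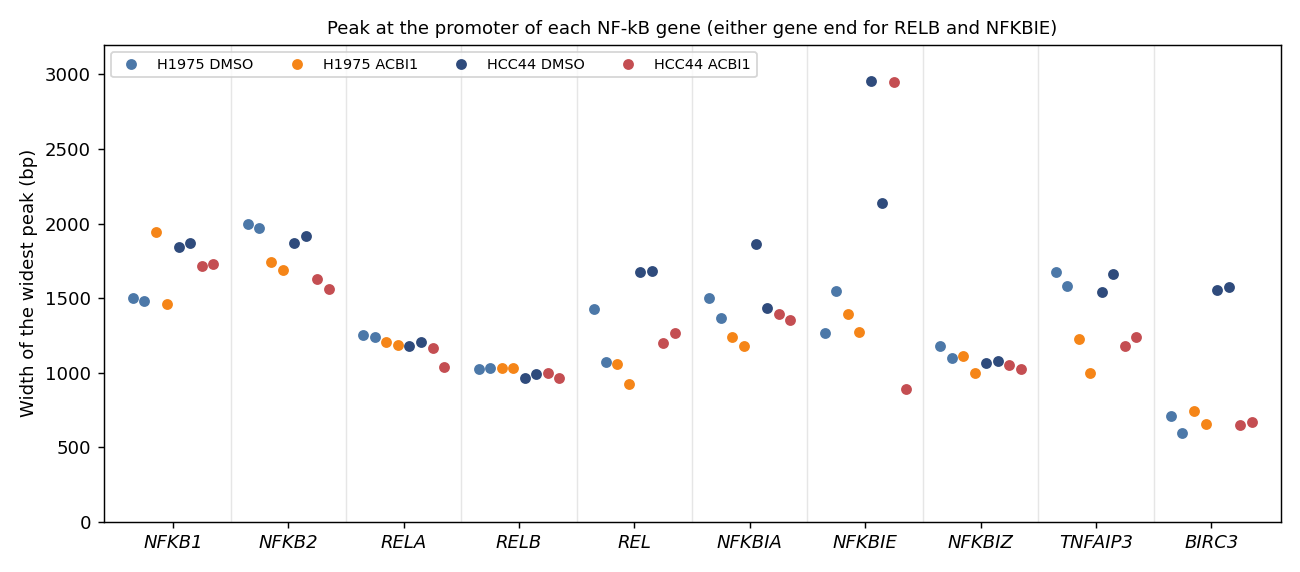
Width in bp of the widest promoter peak (vertical axis) of the 10 genes (horizontal axis), 1 point per sample coloured by line and treatment. For RELB and NFKBIE a peak at either gene end was taken. In HCC44 the BIRC3 points lie at 1553 and 1575 bp with DMSO, above those of ACBI1 at 647 and 669 bp, and the RELB points overlap.

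The widest promoter peak was narrower in both ACBI1 samples at 5 of 10 genes in H1975 (background 52.1%) and at 8 of 10 in HCC44 (background 69.7%), and at 5 of 10 in both lines (43.7%). It was wider at 1 gene, RELB, in H1975 (background 3.84%), where it measured 1025 and 1029 bp with DMSO against 1031 and 1031 bp with ACBI1, and at none in HCC44 (6.29%). With 10 genes these shares are close to the background and are not a result about the set. NFKBIE counted as overlapping in both lines, but its widest peak stood at the SLC35B2 start except in HCC44 DMSO replicate 2. At the other end of NFKBIE the best-ranked peak measured 878 and 849 bp with DMSO against 812 and 676 bp with ACBI1 in H1975. In HCC44 it measured 923 and 2135 bp against 673 and 669 bp. NFKB1 overlapped in H1975, with 1501 and 1479 bp against 1943 and 1461 bp, and was narrower in HCC44, with 1842 and 1869 bp against 1717 and 1726 bp. NFKBIZ, whose widest promoter peak stood over its second start, measured 1178 and 1097 bp, then 1109 and 995 bp, in H1975, and 1064 and 1077 bp, then 1051 and 1022 bp, in HCC44. That peak was among the highest of its list by the authors' −log10 q, at rank 879 and 691 with DMSO in H1975.

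Distal regions were then followed one by one, with positions in GRCh38 and, where a place in a list is given, the share of that list ranked as high or higher by the authors' −log10 q (top 1% is the strong end). Peaks of a line were merged where they overlapped, and a region with a peak in both DMSO samples was called lost when neither ACBI1 sample listed it and retained when both did. In H1975 12 of 27 distal regions of the 10 genes were lost (44.4%), 4 were listed in 1 ACBI1 sample and 11 were retained (40.7%). In HCC44 20 of 34 were lost (58.8%), 3 were listed in 1 ACBI1 sample and 11 were retained (32.4%). Over all distal regions near protein-coding genes the lost share was 49.5% of 22220 in H1975 and 61.9% of 27339 in HCC44, close to the shares of the 10 genes. At starts of protein-coding genes 0 of 27 regions were lost in each line, where the background was 3.36% and 6.57%. Merged over the DMSO and ACBI1 lists of a line, the lost distal regions had a median width of 376 bp in H1975, against 763 bp for the retained ones. In HCC44 it was 562 against 1155 bp. A retained region merges peaks of both treatments and a lost one those of DMSO alone, which by itself can make retained regions wider. All distal regions showed the same order, 389 against 750 bp and 594 against 899 bp.

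**Figure D3:**
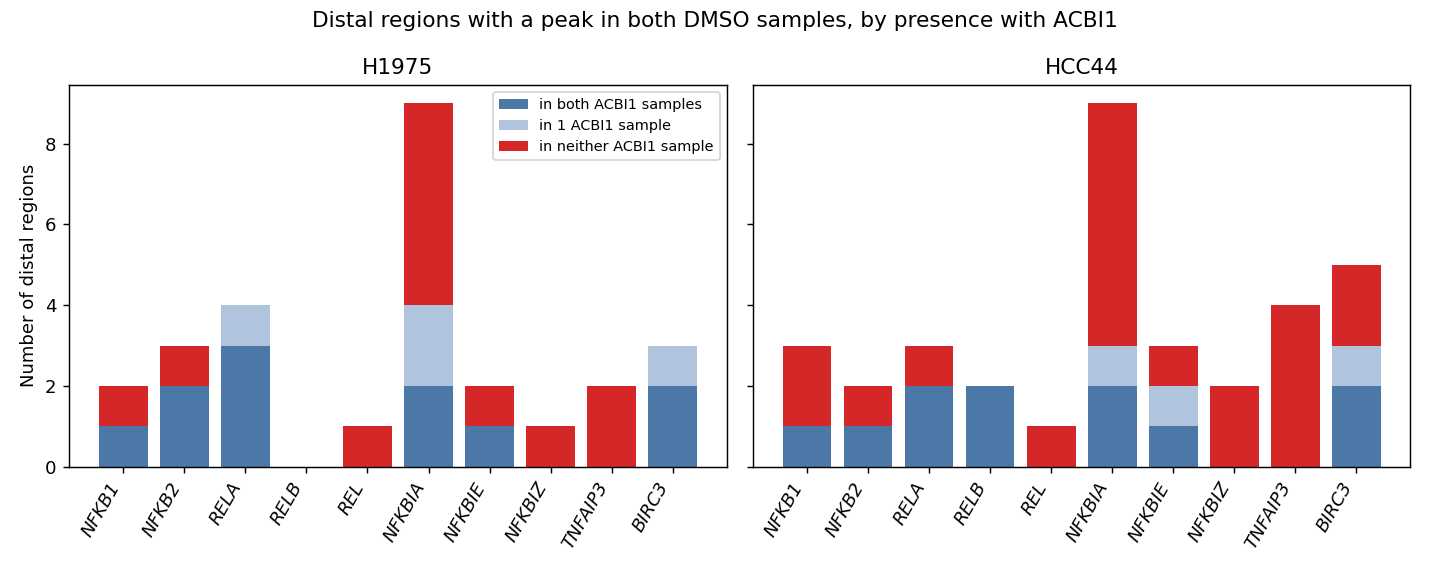
Number of distal regions that both DMSO samples listed (vertical axis) for each of the 10 genes, stacked by whether 0, 1 or 2 ACBI1 samples listed them, with H1975 and HCC44 in separate panels. All regions of TNFAIP3, NFKBIZ and REL fall in the class listed in neither ACBI1 sample, and NFKBIA holds the most regions.

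At REL, NFKBIZ and TNFAIP3 no distal peak at all was listed in any ACBI1 sample, although every DMSO sample had at least 1. Of the 13625 protein-coding genes with a distal peak in all 4 DMSO samples, 6.61% showed this, beside 3 of the 9 such genes here, of which REL in both lines and NFKBIZ in H1975 had only 1 distal peak to lose. Positions that follow are merged over all 8 lists. Only protein-coding and long noncoding RNA genes were checked for overlap, so "no annotated gene" means no gene of these kinds. REL had its distal peak at chr2:60861589-60862180, 19.7 kb upstream of its start within the noncoding gene REL-DT. This peak stood low, in the top 72.8% and 81.4% of the H1975 DMSO lists and the top 86.9% and 89.5% of the HCC44 DMSO lists. NFKBIZ had 1 in each DMSO sample of H1975 and 3 in each of HCC44. The region shared by both lines, chr3:101901970-101902641, lay 74.3 kb downstream of the first NFKBIZ start in no annotated gene. It ranked in the top 15.6% and 16.6% of the HCC44 DMSO lists and in the top 36.7% and 46.2% of the H1975 DMSO lists.

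Most distal peaks of TNFAIP3 lay at different places in the 2 lines. In H1975 the regions listed in both DMSO samples were chr6:137832242-137832443 and chr6:137853612-137853879, 34.9 and 13.5 kb upstream within WAKMAR2, a noncoding gene next to TNFAIP3. In HCC44 they were chr6:137816143-137816537 and chr6:137829543-137829984, 50.9 and 37.5 kb upstream, chr6:137873318-137874364, 6.6 kb downstream within TNFAIP3 itself, and chr6:137904571-137905194, 37.6 kb downstream in no annotated gene. None of the 6 was listed in both DMSO samples of both lines, but chr6:137853612-137853879 was also listed in HCC44 DMSO replicate 1, in the top 42.6% of that list. In each line every one of them was lost, 2 of 2 and 4 of 4. In the order given, the H1975 regions stood in the top 60% and 37.2%, and 68.2% and 58.5%, of the DMSO lists of that line (replicates 1 and 2). The HCC44 regions stood in the top 83.5% and 81.7%, 80.2% and 78%, 55.1% and 80.5%, and 34% and 35.4%. Exons and introns were not analysed here.

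**Figure D4:**
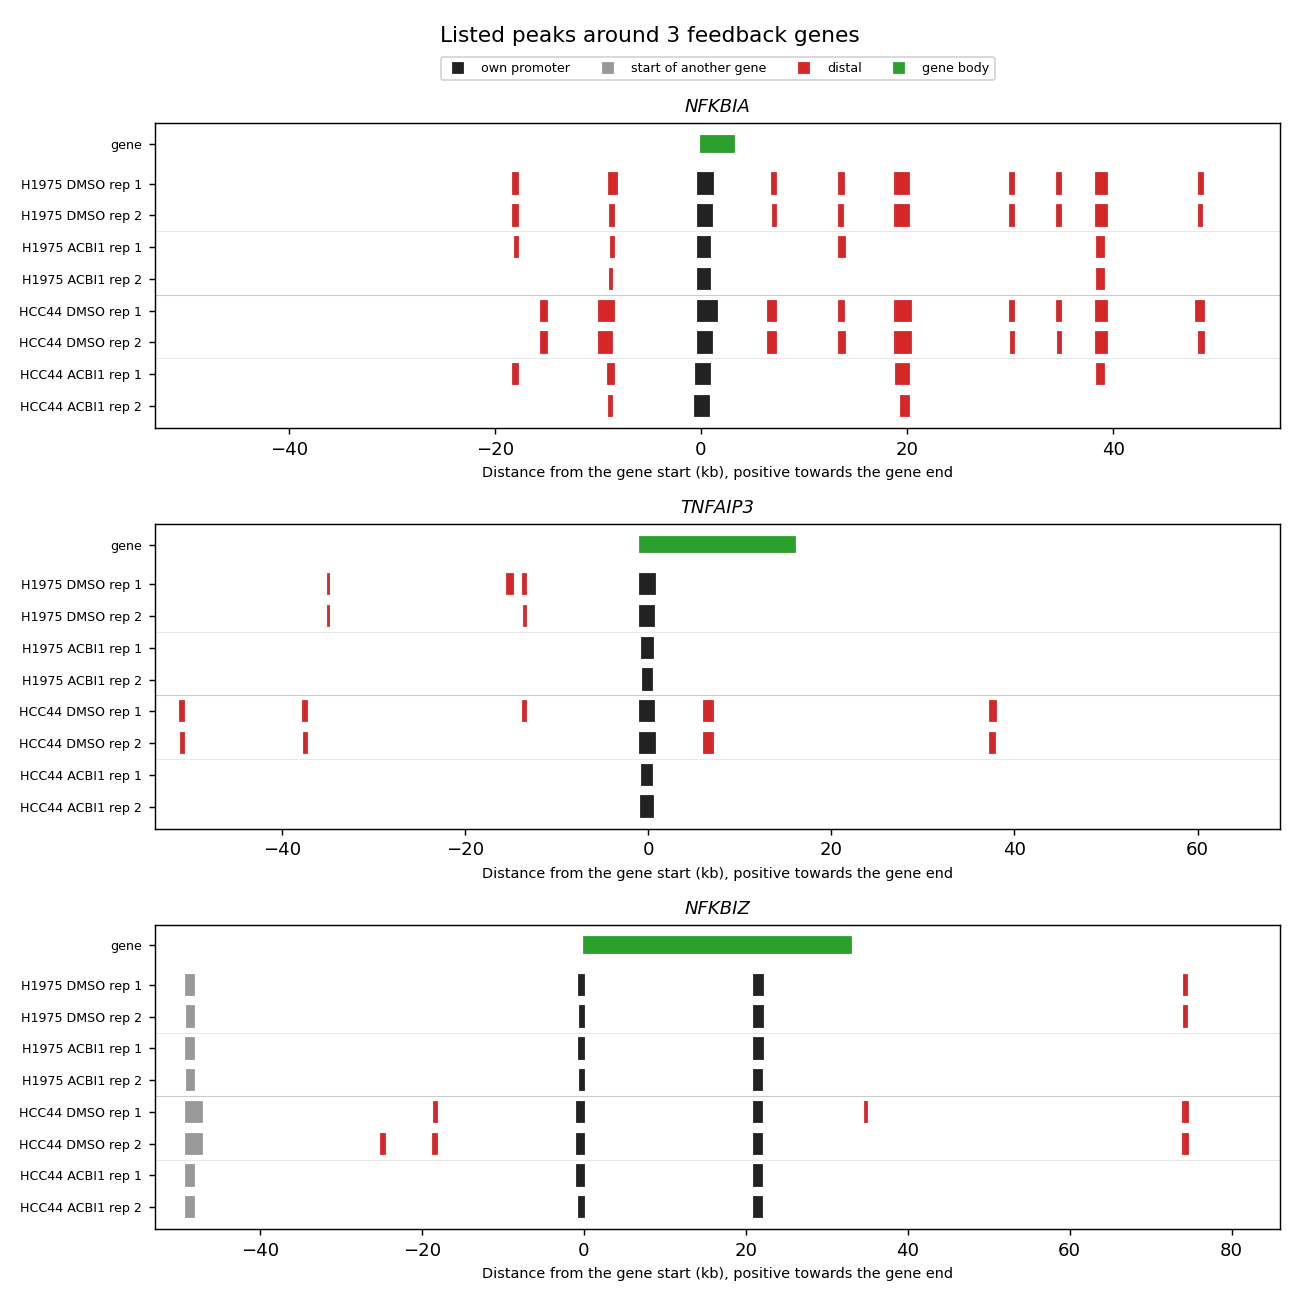
Peaks listed around NFKBIA, TNFAIP3 and NFKBIZ, 1 row per sample, with distance in kb from the gene's start in the direction of the gene on the horizontal axis, the gene body in green, promoter peaks in black, peaks at another gene's start in grey and distal peaks in red. The rows of ACBI1 samples hold peaks only at starts for TNFAIP3 and NFKBIZ, and 2 or 4 distal peaks for NFKBIA, and the outline makes short peaks look slightly wider than scale.

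NFKBIA had 9 distal peaks in each DMSO sample, the most of the 10 genes, and 4 and 2 with ACBI1 in each line. The 4 regions below, each in all 4 DMSO samples, were listed in no ACBI1 sample: chr14:35374376-35374771, chr14:35369816-35370191, chr14:35355980-35356716 and chr14:35397460-35398220. They lay 30.2, 34.7, 48.4 and 6.9 kb downstream of the start, all outside protein-coding and long noncoding RNA genes. The first of these had the best mean rank over the DMSO lists, in the top 40.6% and 40.9% of the H1975 DMSO lists and the top 24.4% and 15% of the HCC44 DMSO lists. Another region, chr14:35365302-35366445, 38.9 kb downstream, ranked 375th and 1446th in the HCC44 DMSO lists, yet it was absent from 1 HCC44 ACBI1 list and ranked 19338th of 26313 peaks in the other. In H1975 it was retained, at 1111 and 1079 bp with DMSO against 752 and 721 bp with ACBI1. Ranks from lists of different length are given side by side and measure no change.

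The lines differed at 1 wide NFKBIA region. At chr14:35384331-35385955, 19.6 kb downstream, peaks of 1411 and 1417 bp in H1975 DMSO had none listed with ACBI1, whereas peaks of 1573 and 1525 bp in HCC44 DMSO were followed by 1279 and 839 bp with ACBI1. This difference between the lines was not tested. A single distal NFKBIA region was listed in all 8 samples, chr14:35412866-35414594, 9.0 kb upstream. It stood low in the DMSO lists, between the top 72.6% and 85.6%. Whether loss follows rank was not tested. Its width was 763 and 346 bp with DMSO against 330 and 189 bp with ACBI1 in H1975, and 1409 and 1267 bp against 504 and 361 bp in HCC44.

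NFKB1 had a pair of distal regions downstream of its gene body. The region chr4:102627877-102628356, 126.8 kb from the start in no annotated gene, stood in the top 44.9% and 30.8% of the H1975 DMSO lists and the top 24% and 25% of the HCC44 DMSO lists, and no ACBI1 sample listed it. The region chr4:102620010-102621102, 119.2 kb from the start within the noncoding gene LOC105377347, stood lower in each of the same 4 lists, in the top 45.8%, 56.9%, 40.9% and 41.1%, and was listed in all 8 samples. It was also the wider one, at 714 to 1011 bp with DMSO against 236 to 480 bp. The promoter peak of NFKB1 ranked lower still in HCC44, in the top 50.1% and 51.6%, and was retained.

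At NFKB2 and RELA, several retained regions were listed in one line only. NFKB2 had 1 distal region in all 4 DMSO samples, chr10:102342612-102344434, 50.6 kb upstream within GBF1, and no ACBI1 sample listed it. It was narrow in H1975, at 330 and 259 bp, and wide in HCC44, at 1684 and 1756 bp. Inside NFKB2, chr10:102399319-102399772 and chr10:102401743-102402109 were listed in all 4 H1975 samples and in no HCC44 sample. Around RELA, chr11:65606960-65607715 within MAP3K11 and chr11:65646999-65647705 within SIPA1 showed the same line-restricted listing. The region chr11:65651686-65653540, 11.2 kb downstream of the first RELA start in no annotated gene, was listed in all 8 samples, at the top 15.6% to 19.9% of the DMSO lists.

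RELB had few distal peaks, 1 or 0 in each H1975 sample and 2 or 3 in each HCC44 sample. Both of its HCC44 regions were retained, among them chr19:44989119-44989642 within CLPTM1, which stood in the top 92.7% and 84.8% of the DMSO lists. NFKBIE kept chr6:44237196-44238383, in no annotated gene, in all 8 samples, at the top 7.6% to 15.8% of the DMSO lists. BIRC3 kept chr11:102267770-102269263, 49.0 kb upstream within LOC105369460, in all 8 samples. In H1975 none of its 3 distal regions was lost, and in HCC44 2 of 5 were.

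**Figure D5:**
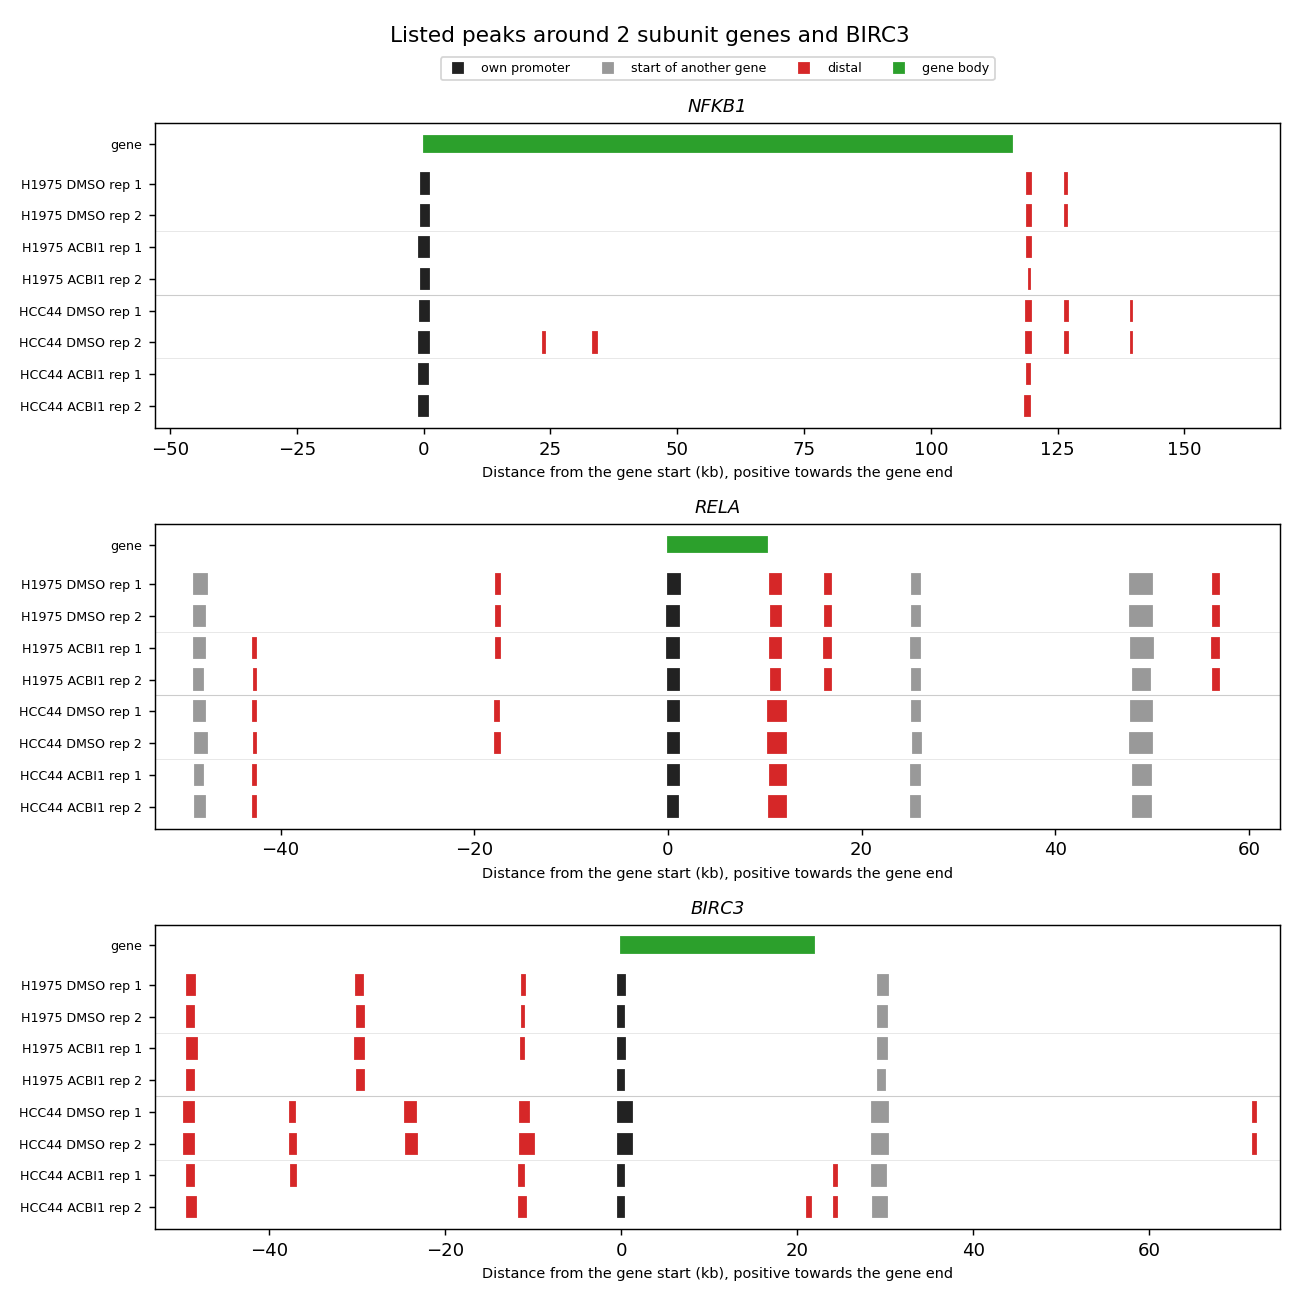
Peaks listed around NFKB1, RELA and BIRC3, 1 row per sample, with axes and colours as in the map of NFKBIA, TNFAIP3 and NFKBIZ. The RELA region 11.2 kb and the BIRC3 region 49.0 kb from the start appear in all 8 rows, and of the NFKB1 pair beyond the gene the nearer appears in all 8 and the farther in the 4 DMSO rows.

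Some distal regions were listed only with ACBI1. In H1975 chr11:65706350-65706730, 42.7 kb upstream of RELA, was listed in both ACBI1 samples and in neither DMSO sample, but it was also listed in all 4 HCC44 samples. In HCC44 the gained regions were chr10:102403382-102404088 beyond NFKB2 within PSD, chr6:44234334-44234916 near NFKBIE and chr11:102341615-102342020, 24.3 kb downstream of the BIRC3 start. Each stood in the lower part of its ACBI1 lists, from the top 58.2% to 96.9%. At a start, chr6:44219297-44219803 at SLC29A1, in the NFKBIE window, was gained in H1975. When peaks were merged over all 8 lists, there were 52 distal regions in the 10 windows. Of the 19 in all 4 DMSO samples, 8 were listed in no ACBI1 sample and 5 in all 4, where 36.9% and 30.4% of 15444 such regions near any protein-coding gene did so.

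The lines also differed before treatment. In DMSO, both HCC44 samples had more peaks than both H1975 samples around 5 of the 10 genes (NFKB1, RELB, NFKBIZ, TNFAIP3 and BIRC3), and fewer around NFKB2 and RELA. Over all protein-coding genes 33.3% had more and 15.4% fewer, and the HCC44 lists were the longer ones. With 2 samples against 2 the exact permutation test can give no p below 0.333.

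The rest of the pathway was read from 2 lists of 30 genes. Around the signalling genes (receptors, adaptors, kinases and regulators), fewer peaks in both ACBI1 samples were counted at 15 of 30 in H1975, 23 of 30 in HCC44 and 15 in both lines, where 50.6%, 64.1% and 41.1% of the genes with DMSO peaks did so. Around the target genes (chemokines, adhesion, survival and other inducible genes) the counts were 19, 23 and 17 of 30, beside the same background. That background leaves out genes without DMSO peaks, whereas 1 signalling gene and 4 targets had no peak in any sample. TLR3 and VCAM1 had none in H1975. Such genes could not have fewer peaks with ACBI1, so these counts of 30 are understated beside it. Over all protein-coding genes the background was 43.3% in H1975 and 55.1% in HCC44. The median difference was -1.5 in H1975 and -2.0 in HCC44 for the signalling genes and -1.5 and -2.75 for the targets, beside -1.0 in each line for all protein-coding genes. TLR4, CCL2, IER3, LTB and TNF were listed at 0 peaks in all 8 samples. The windows of IER3, LTB and TNF, on chromosome 6, hold 3, 9 and 10 other protein-coding genes. Whether the lists cover that part of the chromosome was not examined, so the absence describes the lists and not closed chromatin. More peaks with ACBI1 were listed around IRAK1 and NFKBID in H1975 and around BIRC2 in HCC44. The BIRC2 window overlaps that of its neighbour BIRC3, so they share peaks.

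The largest differences in number with the same order in both lines were at IL1R1, BCL2L1, TNIP1, TRAF1, TRAF3, TNFAIP8, CXCL1 and IRF1, with TNFRSF1A and KLF6 tied with the last 2. IL1R1, the signalling receptor for interleukin 1, had 10 and 8 peaks with DMSO against 5 and 5 with ACBI1 in H1975, and 16 and 14 against 7 and 7 in HCC44, a difference of -6.0, the same as at NFKBIA. TNIP1, an A20-binding protein, had 8 and 9 against 5 and 3 in H1975 and 10 and 9 against 3 and 5 in HCC44. TRAF3, which limits the non-canonical kinase NIK, had 9 and 9 against 4 and 3, and 10 and 8 against 5 and 4. CXCL1, a chemokine, had 2 and 3 against 1 and 1 in H1975, where numbers were small, and 10 and 11 against 3 and 4 in HCC44. The differences at BCL2L1, TRAF1, TNFAIP8 and IRF1 were -5.5, -5.0, -4.5 and -4.25, and TNFRSF1A, a TNF receptor, and KLF6 also differed by -4.25. Each of the 10 had the smallest exact permutation p the design allows, 0.0556 (adjusted 0.135 over all genes).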

How the data were processed

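ATAC-seq peaks were deposited as 1 list per sample (8 samples, 2 lines, 4 groups of 2), so peaks were called per sample. The submitters' processing notes name BWA and hg38, and the peak caller and filters are not given in the sources used here. The deposited lists hold 9 columns without a header. The authors' fold enrichment is a ratio per peak, and the authors' p-value and q-value are deposited as −log10 values. Only −log10 q was used, to rank or filter peaks within a list, and "top 20%" means a rank by −log10 q within that share of the list. Read depth is unknown, so no counting interval was computed.

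Genes and starts came from RefSeq (GRCh38.p14). Starts were in the promoter table for 15842 of 20037 protein-coding genes (79.1%), and for the others both gene ends were used. Windows, promoters (1 kb) and distal peaks were defined as in the text, with overlap of at least 1 bp. Treatments were permuted within lines (exact, two-sided), and p-values were adjusted over all genes with DMSO peaks. All 10 genes were named. Of the other pathway genes, the 8 with the largest mean change in the same order in both lines were named, and 2 tied with the last were added. Named regions were the best-ranked regions lost in both lines, the best listed in all 8 samples and the gained regions, with a few more described after their values were seen. The genes, lists and tests were chosen with earlier results of these data known. The comparison of promoter widths was added after its values were seen. Same replicate numbers in the labels are not said to pair samples. As a check for pairing, a correlation over genes was taken between groups. It was 0.11 between DMSO and ACBI1 in H1975, 0.05 in HCC44, and -0.02 to 0.04 between groups of different lines. It does not measure how far the peak lists overlap, and same-numbered samples were not treated as pairs. Alternatives were windows of 25 and 100 kb, promoter and distal limits, −log10 q of at least 20, equal numbers of peaks, joining peaks, leaving out 1 sample at a time and a replicate block. Python 3.11.15, numpy 2.4.6, pandas 2.3.3 and matplotlib 3.10.9 were used, and the functions were tested on simulated data.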

Additional observations from a re-analysis of the deposited data

Results flagged for a closer look

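Around 2 genes of the NF-κB signalling list, every ACBI1 sample moved one way in H1975 and the other way in HCC44, and the difference was not tested. IRAK1, a kinase of interleukin 1 and Toll-like receptor signalling, had 2 and 2 peaks with DMSO against 4 and 3 with ACBI1 in H1975, and 6 and 6 against 4 and 4 in HCC44. The change was 1.5 in H1975 and -2.0 in HCC44, a difference of -3.5. NFKBID, a nuclear IκB protein, had 4 and 5 against 6 and 7 in H1975 and 7 and 7 against 6 and 5 in HCC44. The change was 2.0 and -1.5, also a difference of -3.5.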

How the results depend on the processing

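A difference in peak number was taken as held where its direction remained and its p stayed at, or stayed off, the smallest p possible. For a count the rule was to stay within 1.5 times. A share had to move by less than the SD of that share over all pairings of 1 DMSO with 1 ACBI1 sample. These pairings reuse each sample, so that SD is not a spread between replicates. By these rules, 57 of 80 values under alternatives of 18 results held, and 98 of 112 with 1 sample left out. At equal numbers of peaks per list (22133, by −log10 q), fewer peaks were counted at 2 genes in each line in place of 5 (H1975) and 7 (HCC44), the lost share of distal regions was 33.3% in H1975 and 50% in HCC44, more peaks were counted at 3 and 4 genes, and the difference was 0.75 at RELA, 1.5 at BIRC3, 2.25 at NFKBIE, 1.25 at NFKB2 and RELB, 0 at REL, -0.25 at NFKB1 and -1.25 at NFKBIA. Windows of 100 kb gave 8 genes in H1975 and a lost share of 53.2% in HCC44, and windows of 25 kb a lost share of 31.2% in H1975. With −log10 q of at least 20 the lost share was 71.4% in HCC44. Of the 5 genes with the smallest p, NFKBIZ alone lost it with windows of 25 kb (difference -1.0, exact permutation p = 0.333). REL alone lost it at −log10 q of at least 20 (difference -0.5, exact permutation p = 0.333). The difference at NFKBIE was -0.25 without HCC44 DMSO replicate 2. The lost shares at equal numbers rested on 12 regions in each line. No share over all genes stands beside the values at other windows or beside these lost shares. They are therefore not a result about the 10 genes as a set. The cause of these shifts was not tested.

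Of the 5 genes with the smallest p, NFKB1 alone had a higher one (0.111) when 1 of the HCC44 ACBI1 samples, whichever, was left out. With 1 sample left out, fewer peaks were counted at 5 to 7 genes in H1975 and 7 to 8 in HCC44, the lost share was 42.9% to 59.3% and 58.8% to 67.6%, with both highest values without ACBI1 replicate 1, and narrower promoter peaks were counted at 5 to 7 and 8 to 10 genes. With the replicate block (16 arrangements, smallest p 0.125) the counts of genes with fewer peaks were 5 and 7. Promoter peaks were kept at 10 of 10 genes under the alternatives run, except 9 of 9 in HCC44 at equal numbers. Unknown depth limits all of these: a peak absent from a shorter list was not detected, and list length and treatment cannot be told apart.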
